A study of Homo sapiens with 12 samples.

Results

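A comparison of 4 groups of 22Rv1 cells asked where the androgen receptor-targeting degrader left transcript levels that enzalutamide and the autophagy-activating ligand, each given alone, did not add up to. The members are genes, chosen over all 12 libraries by an additivity contrast on the log2 scale: the degrader group minus the enzalutamide group, minus the ligand group, plus the vehicle group. The contrast is 0 where the degrader's log2 change over vehicle equals the sum of both single-agent changes, and its value is called the departure here. Of 18668 genes listed, 17702 were tested, and 2694 of them (15.2%) departed from the sum at an edgeR adjusted p under 0.05. Upward departures numbered 1347 (7.61%) and downward departures also numbered 1347 (7.61%).

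22Rv1 is an established human line of castration-resistant prostate cancer cells, wild type by its label. Each group was 3 replicate cultures of it, which the fit treated as independent. Cells were treated for 24 h with vehicle, with enzalutamide, which blocks the androgen receptor's ligand pocket, with the ligand, or with the degrader, and polyadenylated RNA was sequenced from a stranded library. No doses are given in the labels, nor is the make-up of the ligand or the degrader, so a departure that comes from unequal dosing and one that comes from the degrader itself cannot be told apart. Libraries held 55.5 to 77.2 M counted reads; on principal component 1, which held 31.6% of the variance, degrader libraries had scores of 30.3 to 34.3 and the rest -15.7 to -4.42. Mitochondrially encoded genes took 8.51% to 9.20% of reads with the degrader and 7.94% to 8.41% in the other libraries, and the part of this in the departures was not tested. The luminal markers were all listed (6 of 6), at a summed 1140 to 1262 CPM (counts scaled to library size) with the degrader and 1426 to 1799 elsewhere. Of the basal markers KRT5, KRT14 and TP63 were not listed, the 4 of 5 stromal markers that were listed summed to 18.0 to 21.6 CPM, and CD68 was the 1 listed marker of 6 for blood and vessel cells.

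The androgen receptor is a ligand-activated transcription factor that drives prostate genes such as KLK3, and 22Rv1 also makes a splice variant of it that lacks the ligand pocket enzalutamide occupies. Autophagy delivers cytoplasmic cargo to lysosomes, and a ligand that activates it can in principle be joined to a ligand of a protein to send that protein there. Sterol genes are driven by SREBP2 when membrane cholesterol is short. The integrated stress response works through ATF4 and CHOP, and mitotic genes peak shortly before cells divide. Each of these programmes can be read from the transcript levels of its target genes.

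Most departing genes, like most genes tested, had a small sum of single-agent changes. Where the sum is near 0, choosing genes by the departure also fixes on which side of the other groups the degrader lies, so the positions below are a description. Of the 1347 genes above the sum, the degrader mean was above all 3 other groups in 1268, within their range in 78 and below them in 1 (above in 40% of all genes tested). Of the 1347 below the sum, it was below all 3 other groups in 1305 and within their range in 42 (below in 37.3% of all genes tested). All 3 degrader libraries lay above the other 9 in 1126 of the former (14.1% of all genes tested did so), and below the other 9 in 1167 of the latter (13.4% of all genes tested). The sum of both single-agent changes was under 0.25 in size in 994 genes above the sum (73.8%) and in 1145 below it (85.0%), against 73.6% of all genes tested. Departures were modest in size, with a median of 0.44 log2 upward and -0.36 downward; 142 genes (0.802%) rose beyond the sum by at least 1 log2 and 43 (0.243%) fell by as much. On their own, enzalutamide changed 255 genes (1.44%) and the ligand changed 42 (0.237%) against vehicle, and the degrader changed 5795 (32.7%); these comparisons share the vehicle libraries. At an unadjusted p under 0.05 the contrast held 5162 genes (29.2%). Without replicate 1 of every group, which left 8 libraries, 723 genes rose and 632 fell. The contrast combines 4 group means, and its median standard error of 0.116 was larger than the 0.0818 of the degrader against vehicle. Of 15008 genes not called, the 95% interval of the departure lay within 0.5 log2 of 0 in 8524 (56.8%) and within 0.25 in 2381 (15.9%). Just inside the threshold stood ZNF682, at 0.38 (adjusted p = 0.0499), and CRACR2B, at -0.41 (0.04995), and just outside it CYB5R3, at -0.25, and MFAP1, at -0.21 (both 0.05003).

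**Figure D1:**
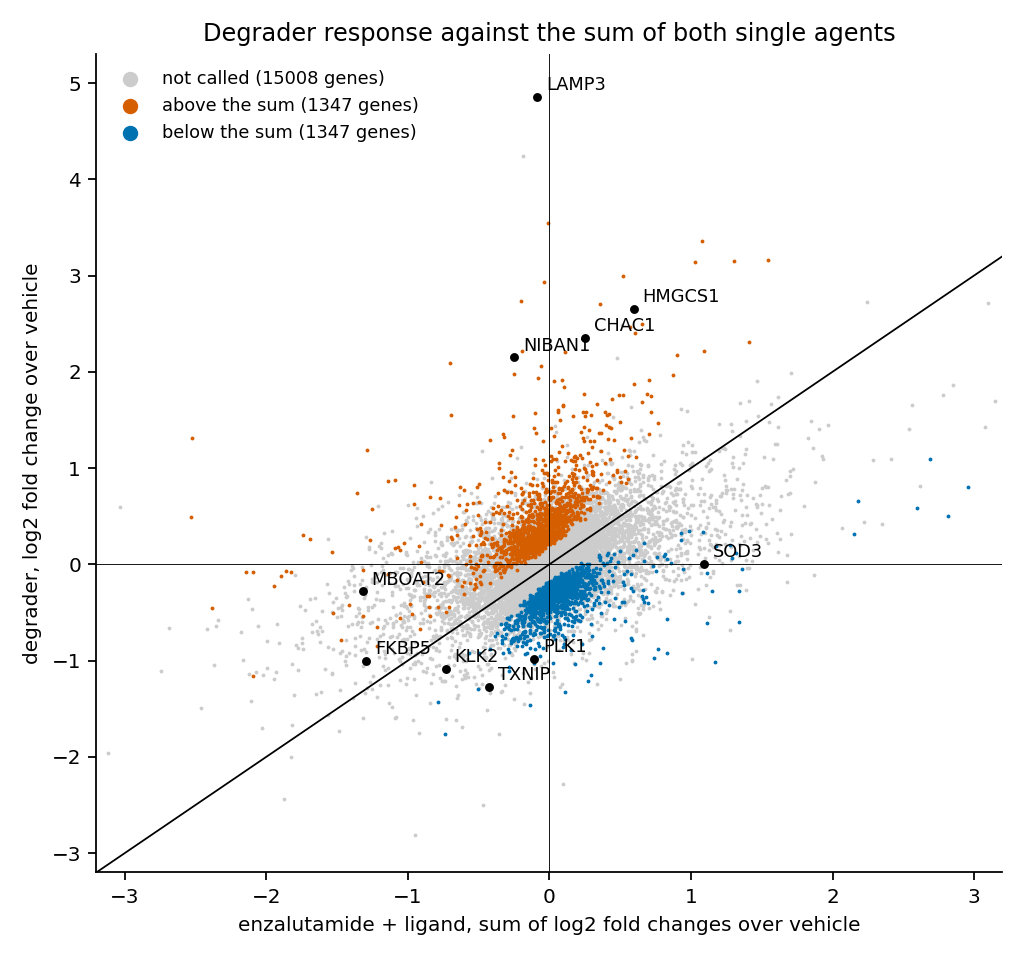
Log2 fold change of the degrader over vehicle (vertical axis) against the sum of the log2 fold changes of enzalutamide and the ligand over vehicle (horizontal axis), 1 point per gene tested, with 5 genes outside the axes. The diagonal marks an exact sum; orange genes (1347) depart upward and blue genes (1347) downward, and most of both lie near 0 on the horizontal axis while MBOAT2 and FKBP5 lie far to its left.

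Sterol synthesis genes rose with the degrader well past what the ligand did alone. Of 25 genes tested, 23 departed upward and 0 downward (7.61% of all genes did so in each direction), with a median departure of 0.78 against 0.01 over all genes tested. For each list given below with 0 genes in a direction, edgeR also had 0 there at an unadjusted p under 0.05, and DESeq2 had 0 at its adjusted p, except that 1 glucocorticoid target was lower, 1 stromal and 1 neuroendocrine marker were lower at the unadjusted p. Against vehicle their median change was 1.29 with the degrader, 0.45 with the ligand and -0.03 with enzalutamide. HMGCS1, which makes the first committed intermediate of the mevalonate pathway, stood at 103, 116 and 111 CPM with vehicle, 102, 104 and 95.5 with enzalutamide, 194, 170.2 and 183 with the ligand and 727, 651 and 699 with the degrader. The ligand libraries were above vehicle, and the degrader libraries were far above all of them, where the sum would have given 166 CPM (departure 2.06, SE 0.08, edgeR adjusted p = 2.93e-10). INSIG1, the ER protein that holds SREBP back when sterol is plentiful, read 40.8, 39.98 and 40.2 CPM with vehicle, 36.6, 37.8 and 35.5 with enzalutamide, 75.97, 65.1 and 68.6 with the ligand and 244, 216 and 224 with the degrader, again without overlap between the degrader and the rest (departure 1.84, SE 0.08, adjusted p = 9.34e-10). SQLE, squalene epoxidase, read 33.3, 34.9 and 32.04 CPM with vehicle, 33.3, 34.4 and 31.2 with enzalutamide, 58.8, 52.3 and 54.1 with the ligand and 134, 123 and 123 with the degrader, a departure of 1.22 (1.04 to 1.40, 95% interval). SREBF2, which encodes SREBP2 itself, departed by 0.48 and rose by 0.42 with the ligand. The smallest upward departures were those of EBP and FDPS, at 0.30 and 0.32.

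PMVK, phosphomevalonate kinase, was a sterol gene not called. It was at 0.09, 0.05 and 0.04 log2 against vehicle with enzalutamide, the ligand and the degrader, none past the threshold, with a departure of -0.10 (-0.32 to 0.12). Genes of fatty acid synthesis departed upward in 10 of 15 cases and downward in 0, with a median of 0.41. SCD, the desaturase that makes oleate, led them at 1.28 (SE 0.09), and FASN, fatty acid synthase, departed by 0.51 although enzalutamide alone put it at -0.27 against vehicle (adjusted p = 0.0675). Sterol efflux genes went the other way, 4 of 8 downward (ABCG1, ABCA1, MYLIP and NR1H3) and 1 upward (SMPDL3A), with a median of -0.34. ABCG1, a cholesterol exporter, read 1.73, 1.74 and 1.95 CPM with vehicle, 2.11, 1.74 and 2.11 with enzalutamide, 0.869, 1.11 and 0.966 with the ligand and 0.611, 0.570 and 0.391 with the degrader, a departure of -1.03 (adjusted p = 0.0110). Levels there were low, and ABCA1, its larger relative, lost its call without most single libraries. SMPDL3A lost its call without 8 of the 12 single libraries (adjusted p of 0.0502 to 0.0659), on the linear CPM scale (0.0669) and without replicate 1 of every group (0.0717).

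Sterol promoters are shown because these genes departed together. The table of RefSeq promoters on GRCh38.p14 held 18 of the 25 genes, and 15 of these carried ATTGG or its complement, the core of the CCAAT box bound by NF-Y, on either strand of the 250 bases before the gene start (83.3%, against 34.9% of 12835 genes tested that have a promoter there). The match was not particular to these genes: 28 of 37 G2/M promoters, of a list that departed downward, held it as well (75.7%). Capitals mark each ATTGG in INSIG1 (chr7:155297628-155297877, + strand) and HMGCS1 (chr5:43313413-43313662, - strand), and a match to letters is not a measured site.
INSIG1: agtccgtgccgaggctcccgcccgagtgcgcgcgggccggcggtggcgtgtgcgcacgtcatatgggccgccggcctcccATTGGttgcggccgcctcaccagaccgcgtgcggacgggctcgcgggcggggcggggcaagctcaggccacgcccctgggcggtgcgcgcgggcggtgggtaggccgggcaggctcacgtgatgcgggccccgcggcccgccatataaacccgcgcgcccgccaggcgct
HMGCS1: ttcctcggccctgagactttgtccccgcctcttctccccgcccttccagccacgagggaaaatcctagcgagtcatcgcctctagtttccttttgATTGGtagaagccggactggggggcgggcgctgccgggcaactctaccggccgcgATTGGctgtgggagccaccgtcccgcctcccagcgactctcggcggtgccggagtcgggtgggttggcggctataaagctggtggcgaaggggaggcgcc

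Genes of the integrated stress response rose beyond the sum nearly throughout the list. Of 34 genes tested, 31 departed upward and 1 downward, with a median of 0.78. At an edgeR adjusted p under 0.05, 0 of 34 changed with enzalutamide (DESeq2 called 0, and 2 were lower at an unadjusted p under 0.05) and 0 of 34 with the ligand (DESeq2 called 2, and 11 were higher and 2 lower at the unadjusted p). Over all genes 1.44% and 0.237% were called in these comparisons, so that 0 calls at the adjusted p in a list of this size is near the background. The share of all genes at the unadjusted p is not given here, so the 11 higher and 2 lower with the ligand have no background beside them. Against vehicle the median of the list was -0.02 for enzalutamide, 0.08 for the ligand and 0.79 for the degrader. CHAC1, an enzyme that breaks down glutathione and a sensitive target of ATF4, read 3.18, 3.38 and 3.07 CPM with vehicle, 2.83, 3.01 and 3.48 with enzalutamide, 4.36, 4.69 and 2.70 with the ligand and 17.1, 15.95 and 16.2 with the degrader. One ligand library lay below all vehicle libraries and the other 2 above them, and the degrader libraries stood apart from all 9 (departure 2.10, SE 0.21, adjusted p = 5.43e-06). DDIT3, which encodes CHOP, read 37.2, 37.9 and 35.7, 36.04, 34.2 and 32.9, 43.5, 43.9 and 39.9 and 128, 109.8 and 108 CPM in the same order, a departure of 1.54 (SE 0.09). ATF4 transcript, whose product is controlled mainly at translation, departed by 0.73. TRIB3, a pseudokinase that CHOP and ATF4 induce, departed by 1.18, and SESN2, a stress-induced inhibitor of mTORC1, by 1.29. GDF15, a secreted stress cytokine, reached 249, 198 and 182 CPM against 59.9, 56.4 and 50.2 with vehicle and departed by 1.83. SLC7A11, the cystine importer, departed by 1.53 with a wide interval of 0.95 to 2.10. ASNS, which makes asparagine, read 186, 192 and 171, 181, 181 and 167, 200.2, 193 and 191 and 359, 328 and 354 CPM, a departure of 0.89, and overlaps a listed read-through gene with which reads can be shared. The exception that fell was ATF5, a relative of ATF4, at -0.35.

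Charging enzymes for tRNA, many of them ATF4 targets, divided. Of 16 tested, 8 departed upward, led by AARS1 for alanine at 0.56 and WARS1 for tryptophan at 0.53, and 2 downward, VARS1 for valine (-0.44) and FARSA, a phenylalanine enzyme subunit (-0.35), both named after their values were seen. Unfolded protein response genes departed upward in 16 of 22 cases and downward in 0, with a median of 0.36. DNAJB9, an ER co-chaperone, departed by 1.10, and HERPUD1, which helps clear misfolded ER proteins, read 84.3, 87.9 and 83.8 CPM with vehicle and 156, 144 and 152 with the degrader (departure 0.94, SE 0.06). HSPA5, the ER chaperone BiP, differed in kind: its degrader libraries at 826, 831 and 848 CPM were close to vehicle at 784, 823 and 779 (log2 0.07, adjusted p = 0.233). Its departure of 0.33 (adjusted p = 0.00162) came with estimates of -0.13 with enzalutamide and -0.14 with the ligand, neither past the threshold. Cytosolic heat shock genes departed downward in 9 of 19 cases and upward in 0, with a median of -0.23. HSPB1, a small heat shock protein, read 260.5, 253 and 229 CPM with vehicle, 299.6, 278 and 278 with enzalutamide, 278, 319 and 249 with the ligand and 202, 193 and 173 with the degrader, and so stood lower with the degrader than in all other libraries (departure -0.78, SE 0.11). HSP90AA1, the inducible HSP90, departed by -0.40.

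The ATF4 target promoters are printed for the element that C/EBP and ATF proteins bind together, searched as TGATGNAA on both strands. It was present in 3 of 28 stress response promoters in the table (10.7%), against 1.46% of all genes tested with a promoter. Capitals mark it in CHAC1 (chr15:40953221-40953470, + strand), where it is read on the opposite strand, and in ASNS (chr7:97872409-97872658, - strand).
CHAC1: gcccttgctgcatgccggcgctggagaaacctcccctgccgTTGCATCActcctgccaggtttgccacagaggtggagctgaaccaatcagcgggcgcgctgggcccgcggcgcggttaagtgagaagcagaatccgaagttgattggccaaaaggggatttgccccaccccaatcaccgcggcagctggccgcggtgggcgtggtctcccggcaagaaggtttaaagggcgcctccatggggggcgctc
ASNS: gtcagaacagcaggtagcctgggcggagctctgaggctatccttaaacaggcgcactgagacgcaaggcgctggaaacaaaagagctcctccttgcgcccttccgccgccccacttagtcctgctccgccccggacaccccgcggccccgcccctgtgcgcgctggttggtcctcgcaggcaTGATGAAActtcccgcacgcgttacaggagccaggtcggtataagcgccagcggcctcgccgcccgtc

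**Figure D2:**
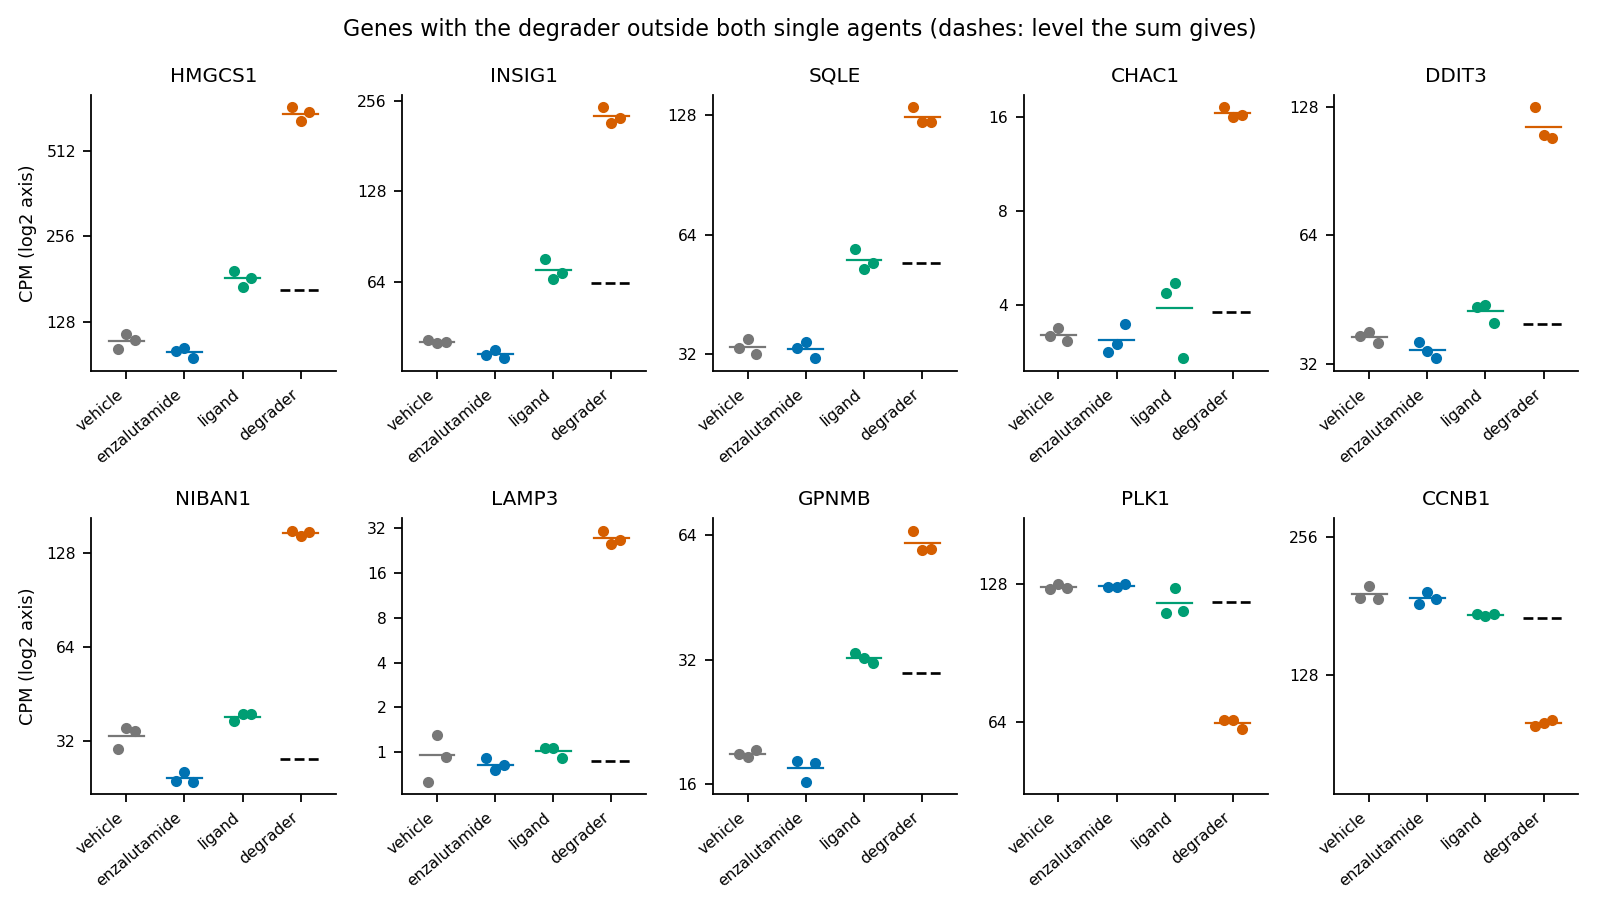
CPM in each library (points, log2 axis) with group means (bars) for 10 genes in vehicle, enzalutamide, ligand and degrader; the dashed line is the level the sum gives, the enzalutamide mean times the ligand mean over the vehicle mean. The degrader libraries of HMGCS1 lie between 651 and 727 CPM against a sum of 166, and those of PLK1 between 61.7 and 64.6 against 117.

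Lysosome and autophagy genes bear on the pathway that the ligand is labelled to activate. LAMP3, a lysosomal membrane protein induced by cell stress, had the largest departure of all genes tested: 0.636, 1.31 and 0.935 CPM with vehicle, 0.914, 0.756 and 0.817 with enzalutamide, 1.07, 1.07 and 0.913 with the ligand and 30.6, 25.1 and 26.7 with the degrader (departure 4.94, 4.38 to 5.50, adjusted p = 5.77e-09). All 9 other libraries were near 1 CPM. The lysosome list departed upward in 13 of 45 cases and downward in 4, with a median of 0.12. With the ligand alone 4 of 45 rose by edgeR and 6 by DESeq2, and 0 fell by either (14 higher and 0 lower at an unadjusted p under 0.05), where 0.237% of all genes were called. GPNMB, a glycoprotein induced by lysosomal stress, was raised by the ligand as well, from 18.9, 18.6 and 19.4 to 33.1, 32.2 and 31.4 CPM (log2 0.77), and reached 65.4, 58.9 and 59.2 with the degrader, 1.04 above the sum. NEU1, the lysosomal sialidase, followed the same order, with 0.52 for the ligand, 1.35 for the degrader and a departure of 0.65. The cathepsins CTSB and CTSH, lysosomal proteases, departed downward by -0.52 and -0.53, as did GLA and PPT1. Autophagy genes departed upward in 12 of 40 cases and downward in 0, with a median of 0.13. With the ligand alone 0 of 40 changed by edgeR and 0 by DESeq2 (3 higher and 1 lower at an unadjusted p under 0.05). The 0 edgeR calls are near that background of 0.237%. SQSTM1, the cargo receptor p62, read 181, 164 and 157 CPM with vehicle, 189, 172 and 173 with enzalutamide, 211, 199 and 182 with the ligand and 388, 324 and 317 with the degrader, so that ligand and degrader libraries were separate (departure 0.71, SE 0.11). The membrane conjugates MAP1LC3B and GABARAPL1 departed by 0.78 and 0.73, and WIPI1, which marks the sites where autophagosomes form, by 0.90. Against vehicle these 3 genes were at 0.04, 0.03 and 0.01 with the ligand. CCPG1 and OPTN, cargo receptors for the ER and for mitochondria, departed by 1.14 and 1.13.

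Many cell division genes fell below the sum. The G2/M list had the lowest median departure of the gene lists, which were chosen with earlier results of these data known. Of 43 G2/M genes tested, 36 departed downward and 0 upward, with a median of -0.49. With enzalutamide alone 0 of 43 changed by edgeR and 0 by DESeq2 (2 lower at an unadjusted p under 0.05). With the ligand alone 0 of 43 changed by edgeR and 0 by DESeq2, but 22 were lower and 0 higher at the unadjusted p. With 1.44% and 0.237% of all genes called, the 0 counts at the adjusted p are near the background. The share of all genes at the unadjusted p is not given here, so the 22 have no background beside them. The median of the G2/M genes with the ligand against vehicle was -0.13. PLK1, a kinase that drives entry into mitosis, read 124, 128 and 125 CPM with vehicle, 126, 126 and 128 with enzalutamide, 110.2, 125 and 112 with the ligand and 64.4, 64.6 and 61.7 with the degrader. The degrader libraries lay far below the other 9, 1 of the ligand libraries lay within the vehicle range, and the sum would have given 117 CPM (departure -0.88, SE 0.07, adjusted p = 7.54e-07). CCNB1, cyclin B1, read 188, 200.02 and 187, 183, 194 and 187, 174, 172 and 174 and 98.8, 101 and 102 CPM in the same order (departure -0.76). CDC20, which activates the complex that ends mitosis, departed by -0.82, KIF20A, a kinesin of cell cleavage, by -0.78, BIRC5, survivin, by -0.74, and UBE2C, an enzyme of the same complex, by -0.62. TUBB4B, a beta tubulin, fell below the sum by -0.85, although tubulin genes have close copies among which reads can be shared. DNA replication genes departed downward in 25 of 40 cases and upward in 0, with a median of -0.29, and in 16 of 40 without replicate 1 of every group. TYMS, thymidylate synthase, departed by -0.55, and MCM4, a subunit of the replicative helicase, by -0.39. Ribosome biogenesis genes departed downward in 13 of 30 cases and upward in 0, with a median of -0.21, among them NCL, nucleolin, at -0.36. Fewer dividing cells and less of each transcript per dividing cell cannot be told apart in these bulk libraries.

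Promoters of the mitotic genes are printed because TTTGAA, the core of the cell cycle genes homology region bound by the DREAM complex, was frequent among them. On either strand of the 250 bases it was present in 18 of the 37 G2/M genes that have a promoter in the table (48.6%; all 18 were among the 31 called), against 8.66% of all genes tested and 11.1% of all genes that departed downward. Capitals mark it in PLK1 (chr16:23678639-23678888, + strand) and CDC20 (chr1:43358731-43358980, + strand); the windows of CCNB1 and KIF20A did not hold these letters.
PLK1: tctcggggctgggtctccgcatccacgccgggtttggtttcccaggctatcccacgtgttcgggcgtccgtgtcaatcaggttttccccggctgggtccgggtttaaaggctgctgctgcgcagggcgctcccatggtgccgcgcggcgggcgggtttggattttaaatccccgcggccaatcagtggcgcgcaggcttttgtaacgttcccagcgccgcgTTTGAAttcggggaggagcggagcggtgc
CDC20: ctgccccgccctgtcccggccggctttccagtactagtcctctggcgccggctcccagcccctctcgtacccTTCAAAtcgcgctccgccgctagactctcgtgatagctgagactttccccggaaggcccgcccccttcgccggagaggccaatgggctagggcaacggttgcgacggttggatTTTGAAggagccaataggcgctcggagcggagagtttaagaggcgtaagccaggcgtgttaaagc

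**Figure D3:**
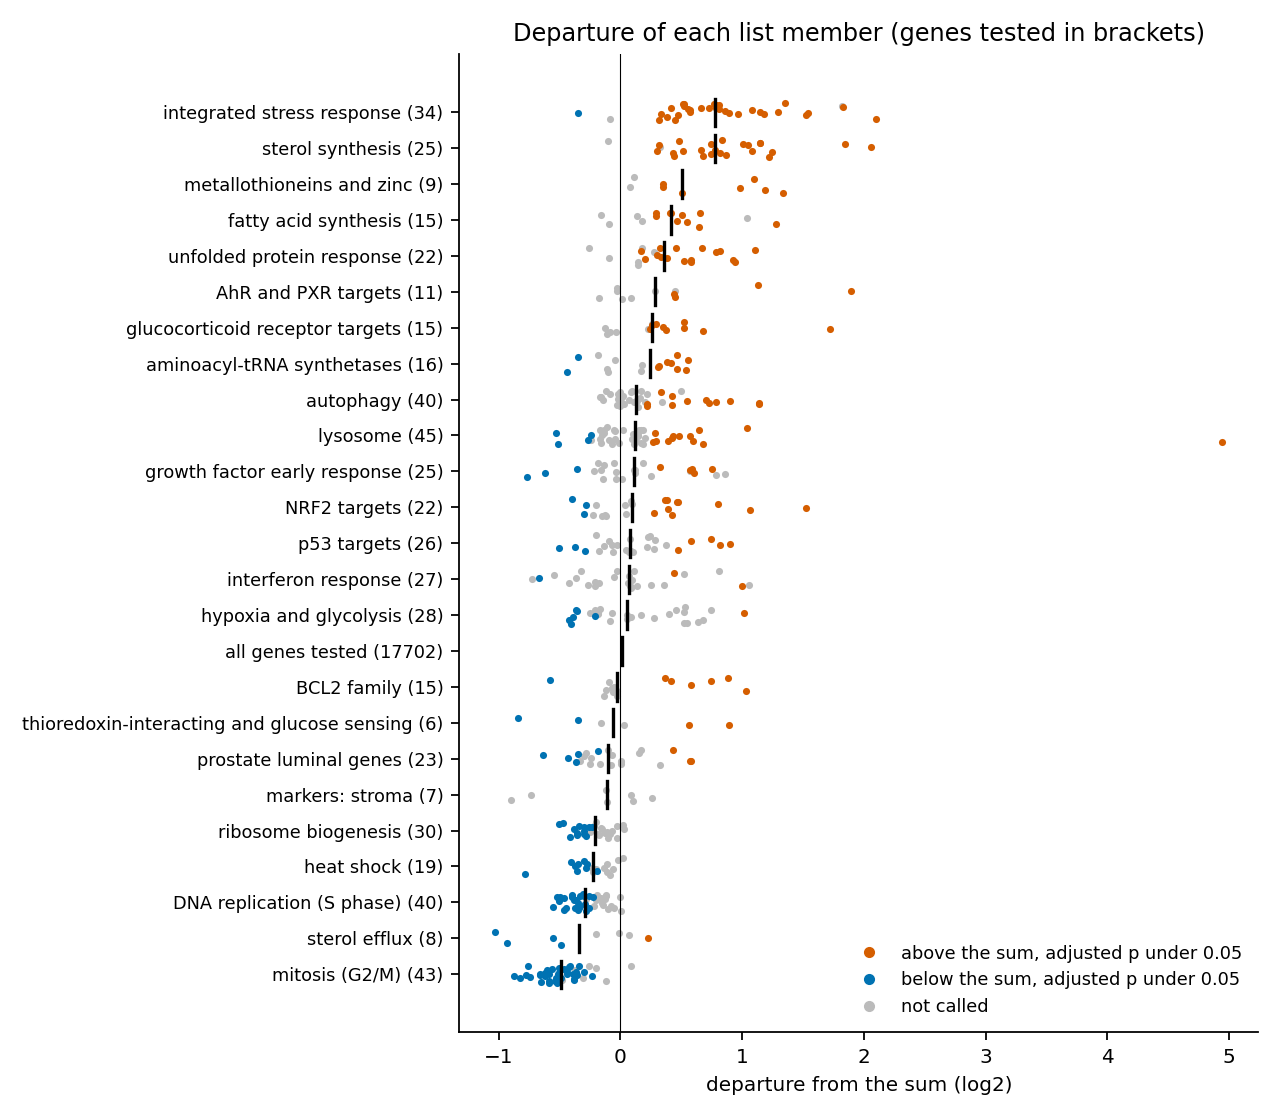
Departure of every tested member (points, log2 axis) of each gene list with at least 5 genes tested, with the list median as a black bar and the number tested in brackets. Stress response and sterol genes lie furthest right (medians of 0.78 for each), G2/M genes lie furthest left (median -0.49), and LAMP3 stands alone at 4.94; for all 17702 genes tested the median alone is drawn.

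Prostate genes departed in both directions, and genes lowered by enzalutamide were found on each side of the sum. Of 23 luminal prostate genes tested, 3 departed upward and 5 downward, with a median of -0.11. KLK3, which encodes prostate-specific antigen, read 21.8, 21.4 and 20.9 CPM with vehicle, 17.4, 16.05 and 17.2 with enzalutamide, 18.8, 19.5 and 19.3 with the ligand and 12.2, 11.02 and 10.5 with the degrader. Each group was lower than vehicle in all 3 libraries, the degrader group the lowest, and the departure was -0.43 (SE 0.09, adjusted p = 0.00521). KLK2, its neighbour in the kallikrein family, read 73.9, 68.6 and 70.4, 58.1, 49.2 and 52.3, 57.01, 58.6 and 55.2 and 34.7, 31.8 and 33.8 CPM in the same order and changed with both single agents (-0.42 and -0.32). Its departure of -0.35 (adjusted p = 0.0114) lost its call when the effects were added on the linear CPM scale (0.323). STEAP4, a metalloreductase, fell to 1.09, 1.14 and 1.21 CPM from 2.97, 3.06 and 3.22, a departure of -0.64 that lost its call on that scale (0.109) and without enzalutamide replicate 2 (0.056). HOXB13, a prostate lineage factor on which neither single agent had an effect past the threshold, departed by -0.37, and GRHL2, an epithelial factor, by -0.18. TMPRSS2, the serine protease gene, had a departure of -0.11 with an interval of -0.25 to 0.04, and was not past the threshold with either single agent or with the degrader against vehicle.

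Other genes that enzalutamide lowered stood nearer to vehicle with the degrader than with enzalutamide. SLC45A3, a prostate transporter gene, read 84.7, 78.5 and 73.5 CPM with vehicle, 35.4, 34.2 and 39.6 with enzalutamide, 87.7, 84.99 and 86.4 with the ligand and 63.2, 59.6 and 55.2 with the degrader, where the sum gave 39.8. The degrader libraries lay between the enzalutamide and vehicle libraries without touching either (departure 0.58, SE 0.09, adjusted p = 0.000575; 0.0542 on the linear scale). PMEPA1, a regulator of TGF-beta signalling, read 415, 390.4 and 391, 257, 253 and 261, 437, 453 and 442 and 439, 424 and 411 CPM, so that degrader and vehicle libraries overlapped while enzalutamide stood lower (departure 0.57, adjusted p = 9.58e-06). FKBP5, a co-chaperone of steroid receptors, read 906, 917 and 942, 369.8, 399 and 391, 881, 866 and 937 and 448, 464 and 467 CPM. It fell with both compounds, less with the degrader than the sum would give (departure 0.29, adjusted p = 0.00524; 0.0763 on the linear scale). Glucocorticoid receptor targets, a list that holds FKBP5 and shares several genes with the androgen response, departed upward in 9 of 15 cases and downward in 0, with a median of 0.26; 8 of the 15 changed with enzalutamide alone, and on the linear scale 5 of 15 departed. MAOA, monoamine oxidase A, departed by 0.26 (0.0551 without replicate 1 of every group). ZBTB16, a zinc-finger repressor, departed by 0.24, and its adjusted p of 0.0223 became 0.0513 to 0.0612 without vehicle replicate 1 or 3, enzalutamide replicate 2, ligand replicate 1 or degrader replicate 2. KLF9, a steroid-induced factor, had 0.23 (adjusted p = 0.0651; 0.0468 without degrader replicate 1 and 0.0311 with the replicate number as a block), and STEAP1, a surface antigen, had 0.16 (0.166).

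Genes short of the sum were the called genes whose single agents together gave at least 0.5 log2 and whose departure had the opposite sign. The sum uses the same enzalutamide, ligand and vehicle libraries as the departure, and so a chance excess in them enters both; the counts are a description only. There were 96 such genes with a negative sum (0.542% of genes tested) and 60 with a positive sum (0.339%), out of 1000 (5.65%) and 957 genes (5.41%) with sums of that size. Enzalutamide gave the larger estimate in 73 of the 96 and 41 of the 60. In 50 of the 96 the degrader mean stayed on the sum's side of vehicle, and in 46 it crossed to the other side; of the 60 these were 27 and 33. Most were genes of low level: 42 of the 96 and 14 of the 60 had a group mean of at least 5 CPM. MBOAT2, a lipid acyltransferase, read 51.4, 57.1 and 58.7 CPM with vehicle, 21.6, 20.6 and 22.7 with enzalutamide, 57.5, 49.7 and 65.3 with the ligand and 44.2, 45.5 and 48.02 with the degrader. Against vehicle it was at -1.36 log2 with enzalutamide and -0.28 with the degrader, and its degrader libraries lay just under the vehicle libraries. MAF, a transcription factor, had the same order at a lower level, with 3.40, 3.11 and 3.08 CPM on enzalutamide and 6.22, 5.85 and 6.14 on the degrader against 8.73, 7.52 and 8.18 with vehicle. MAP1B, a microtubule-associated protein, fell with enzalutamide to 112, 118 and 125 CPM and rose with the degrader to 219, 217 and 230.2, from 184, 182 and 189.7 with vehicle, an opposite response to each compound. CLGN, a testis ER chaperone, and ADRA1A, the alpha-1A adrenergic receptor, had the same pattern, at -0.47 and -0.59 with enzalutamide and 0.81 and 0.63 with the degrader. GCLC, the catalytic subunit of glutathione synthesis, was at -0.58 with enzalutamide and -0.23 with the degrader.

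In the other direction, SOD3, the extracellular superoxide dismutase, was raised by enzalutamide and not called with the ligand or the degrader: 6.36, 5.64 and 5.81 CPM with vehicle, 10.9, 10.5 and 12.1 with enzalutamide, 6.47, 8.14 and 5.55 with the ligand and 6.76, 5.46 and 5.61 with the degrader. Degrader and vehicle libraries overlapped, and the departure of -1.09 (SE 0.17) is nearly the enzalutamide response of 0.91 with its sign turned, together with a ligand estimate of 0.18. BTG2, an antiproliferative p53 target, read 22.9, 19.97 and 21.6, 32.96, 34.7 and 31.4, 21.3, 20.6 and 20.1 and 22.4, 21.8 and 23.2 CPM in the same order, again raised by enzalutamide, with -0.05 for the ligand and 0.06 for the degrader, neither past the threshold. DGAT2, the last enzyme of triglyceride synthesis, read 16.6, 16.6 and 14.8 CPM with vehicle, 20.1, 19.9 and 19.004 with enzalutamide, 20.2, 19.1 and 17.9 with the ligand and 15.4, 15.5 and 14.8 with the degrader, a departure of -0.62. EVX1, a homeobox gene, rose by 0.85 with enzalutamide and departed by -0.60.

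**Figure D4:**
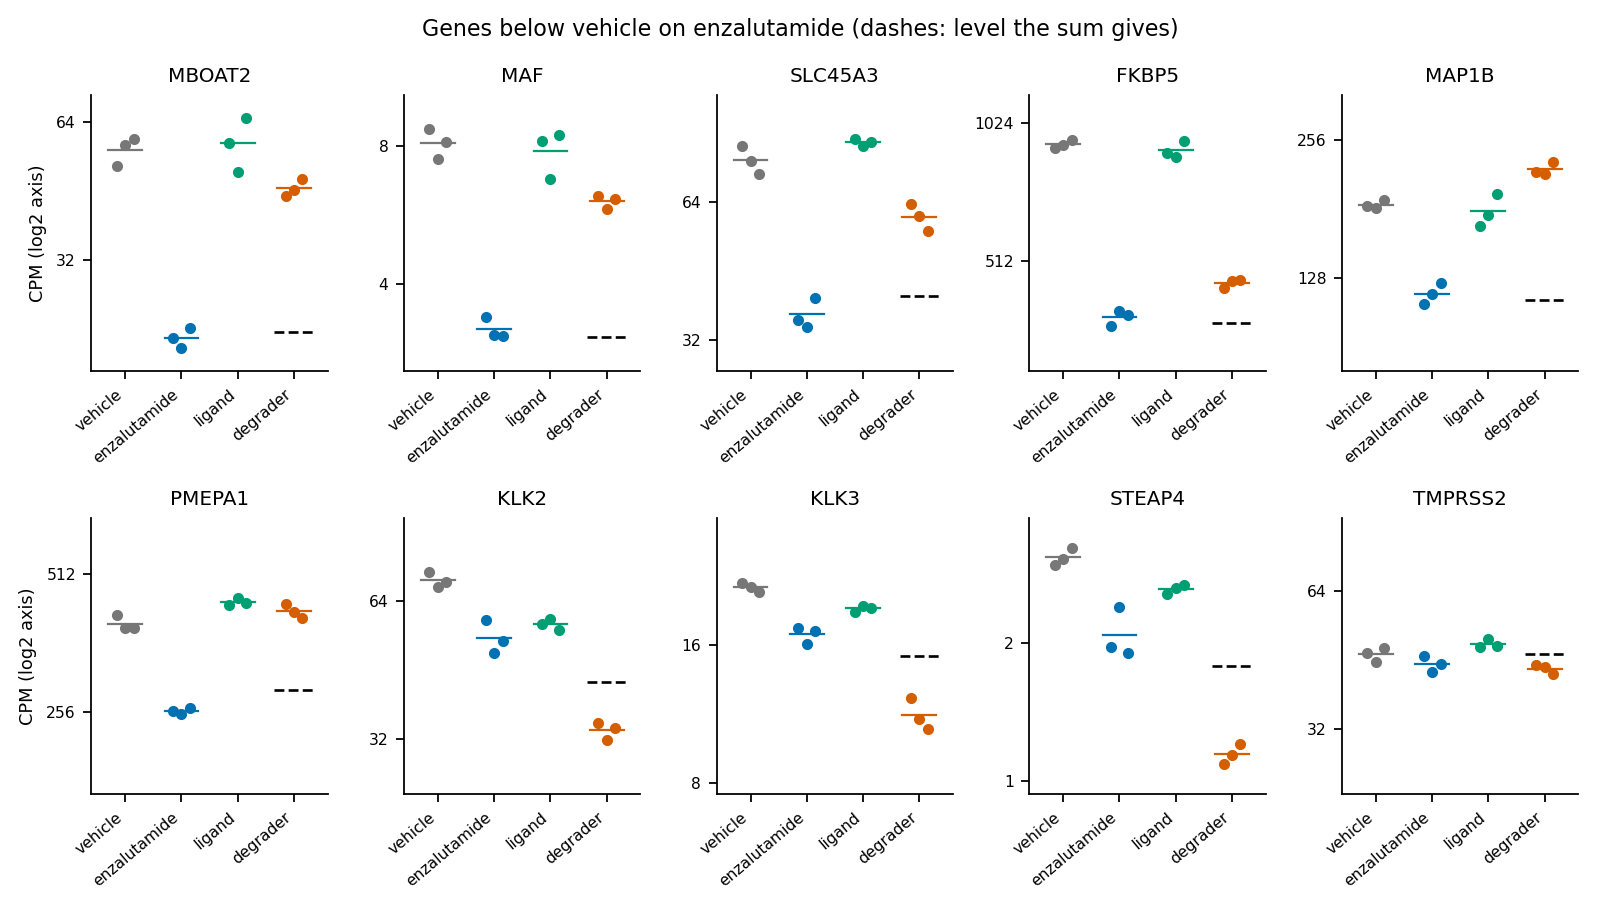
CPM in each library (points, log2 axis) with group means (bars) and the level the sum gives (dashes) for 10 genes whose enzalutamide mean lay below vehicle. Degrader libraries stand above the dashes for MBOAT2, MAF, SLC45A3, FKBP5, MAP1B and PMEPA1 and below them for KLK2, KLK3 and STEAP4; TMPRSS2, at 43.96, 43.6 and 42.2 CPM with the degrader, was not called.

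Outside the lists, the largest rises beyond the sum fell on genes of varied function. NIBAN1, a stress-regulated factor of translation, read 30.3, 35.3 and 34.6 CPM with vehicle, 23.9, 25.5 and 23.8 with enzalutamide, 37.1, 39.02 and 39.03 with the ligand and 151, 145 and 149 with the degrader. It had the smallest p of the contrast, was lower with enzalutamide (-0.45, adjusted p = 0.000263), and stood 2.40 above the sum (adjusted p = 3.41e-11). ARHGEF2, a microtubule-bound exchange factor for RhoA, read 46.3, 40.8 and 40.4, 40.3, 39.8 and 39.7, 46.5, 48.2 and 44.6 and 172, 154 and 152 CPM in the same order, with a departure of 1.87. RELN, the secreted matrix protein reelin, departed by 2.12, CALCA, the calcitonin gene, by 2.48, and LARP6, which binds collagen messages, by 1.74. CYP1A1, a drug-metabolising enzyme under the aryl hydrocarbon receptor, read 13.6, 10.8 and 10.9 CPM with vehicle, 18.8, 14.6 and 11.9 with enzalutamide, 15.1, 13.4 and 12.6 with the ligand and 73.7, 61.3 and 60.4 with the degrader, a departure of 1.90 (SE 0.21), and its list departed upward in 4 of 11 cases (CYP1A1, CYP1A2, CYP1B1 and TIPARP) and downward in 0 (2 of 11 upward without replicate 1 of every group). CYP1B1 was at 0.18 with the degrader against vehicle, not past the threshold (adjusted p = 0.144). Its departure lost its call without several single libraries in turn (0.0523 to 0.0739) and without replicate 1 of every group (0.168). Metallothionein and zinc genes departed upward in 7 of 9 cases and downward in 0, with a median of 0.50. The close copies of the family can share reads, and on the linear scale 4 of 9 departed. MT1X, a metal-binding member, read 15.6, 16.1 and 16.01, 17.4, 14.7 and 13.1, 25.1, 21.6 and 19.4 and 52.6, 43.96 and 46.1 CPM. At those levels the largest falls included CCKBR, the gastrin receptor, at -0.95, PIF1, a DNA helicase, at -0.93, and NRGN, neurogranin, at -0.91. TXNIP, an arrestin-like brake on glucose uptake, read 489.8, 480.1 and 471 CPM with vehicle, 452, 475 and 447 with enzalutamide, 388, 356 and 379 with the ligand and 213, 195 and 188 with the degrader. It fell with the ligand as well (-0.36), and the degrader took it -0.84 below the sum.

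In the BCL2 family, 6 of 15 departed upward and 1 downward: the killer members BMF at 0.89, HRK at 1.03, BBC3 (PUMA) at 0.74, PMAIP1 (NOXA) at 0.58 and BCL2L11 (BIM) at 0.41, the survival member BCL2L2 at 0.37, and BID at -0.58, which read 4.16, 3.71 and 3.61 CPM with vehicle and lost its call without most single libraries. PMAIP1 was at 0.21 with the degrader against vehicle (adjusted p = 0.0734) and at -0.37 with enzalutamide (0.0444). Its degrader libraries overlapped the others, and it lost its call without replicate 1 of every group (0.0564). The p53 targets departed upward in 5 of 26 cases (EDA2R, PMAIP1, BBC3, TNFRSF10B and TP53INP1) and downward in 3 (BTG2, DDB2 and POLH). TP53INP1, a stress-induced autophagy and death factor, was at 0.90 and TNFRSF10B, the death receptor DR5, at 0.81. NRF2 targets departed upward in 10 of 22 cases and downward in 3 (AKR1C3, PRDX1 and TXN; 1 on the linear scale), with HMOX1, heme oxygenase, at 1.07. An upward departure need not be a rise over vehicle, as for GCLC, which departed by 0.39 and stood at -0.23 with the degrader. Growth factor early genes departed upward in 5 of 25 cases (JUN, FOS, KLF4, KLF6 and DUSP4) and downward in 3 (EGR1, PHLDA1 and ETV4). Interferon genes departed upward in 2 of 27 (ISG20 and IRF9) and downward in 1, OAS3 at -0.67. IRF9 lost its call without 9 of the 12 single libraries (adjusted p of 0.0655 to 0.116) and without replicate 1 of every group (0.149). The list around TXNIP, of 6 genes, departed upward in 2 (MLXIPL and ARRDC3) and downward in 2 (TXNIP and ARRDC4). Stromal markers (7 tested), neuroendocrine markers (4) and the blood and vessel marker (1) had 0 called, and of 3 basal markers CD44 departed by 0.22 and ITGB4 by -0.99, both losing the call without replicate 1 of every group.

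Hypoxia and glycolysis genes need separate mention because libraries of the same group differed in them. Their mean log2 CPM was 7.34, 6.91 and 7.09 with vehicle, 7.07, 6.66 and 6.79 with enzalutamide, 7.06, 6.67 and 6.89 with the ligand and 6.93, 6.61 and 6.64 with the degrader, in replicates 1, 2 and 3 in turn, highest in replicate 1 of every group. Of 28 tested, 1 departed upward (VEGFA, at 1.02, lost without 5 single libraries in turn, with adjusted p of 0.0569 to 0.0624) and 6 downward, with a median of 0.05. On the linear scale 0 departed downward, and without replicate 1 of every group 2 departed upward and 4 downward. LDHA, lactate dehydrogenase A, had a departure of -0.25 with an interval of -0.80 to 0.30, and was called with the replicate number as a block (adjusted p = 0.0112).

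The ligand response can be set beside the degrader response from libraries that are not shared: ligand minus vehicle, and degrader minus enzalutamide. If effects added exactly, both differences would be equal for each gene, apart from noise. Noise lowers a correlation across genes, and the ligand alone changed 42 genes (0.237%). The correlations therefore do not measure how nearly the effects added. Across 17702 genes, which are not independent replicates, they had a Pearson correlation of 0.168 and a Spearman correlation of 0.165, and 0.293 and 0.205 over the 11739 genes with a mean of at least 5 CPM. For enzalutamide minus vehicle and degrader minus ligand, the values were 0.0930 and 0.0413, and 0.107 and 0.0103 over the same 11739 genes. Sterol genes had medians of 0.45 and 1.25 for the ligand over vehicle and for the degrader over enzalutamide, and 17 of 25 changed with the ligand alone. Stress response genes had medians of 0.08 and 0.85, and G2/M genes -0.13 and -0.58. Sterol genes were the list of these 3 with a large median in both differences.

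**Figure D5:**
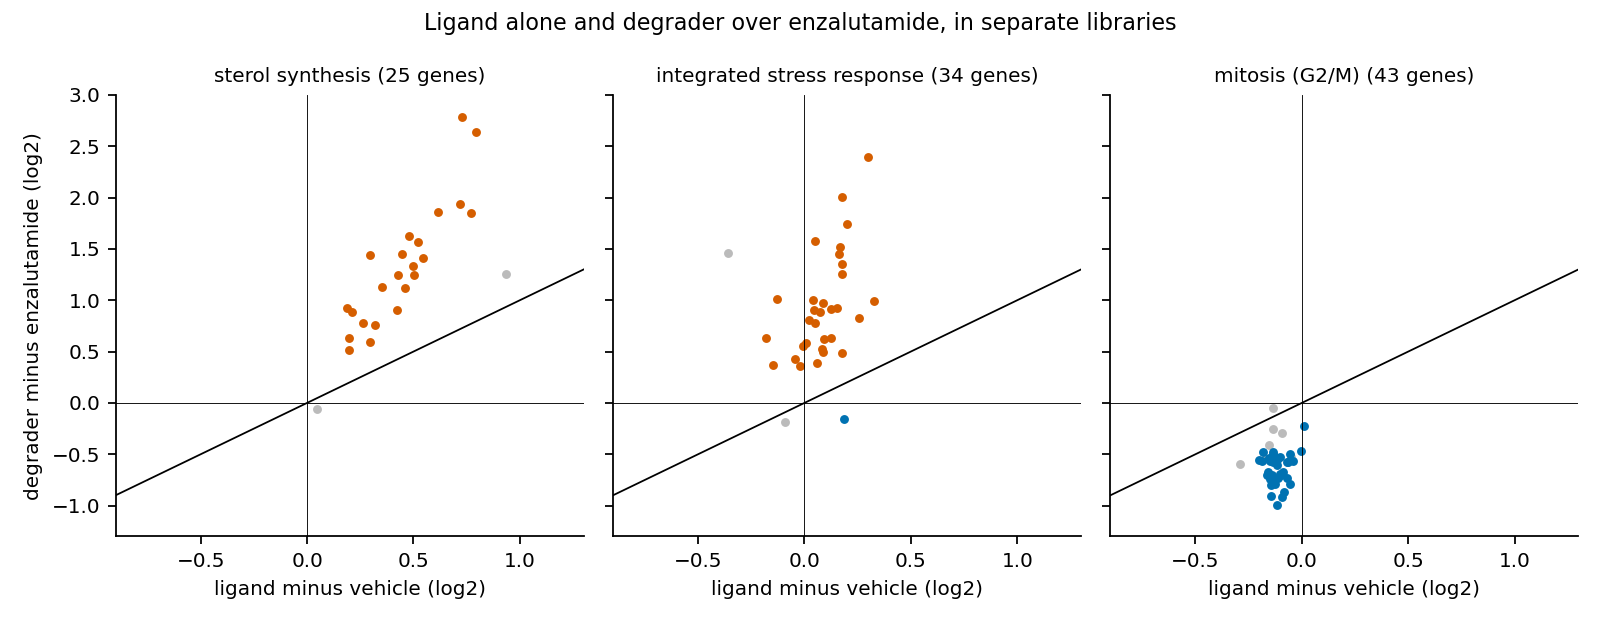
Log2 difference of degrader minus enzalutamide (vertical axis) against ligand minus vehicle (horizontal axis) for the tested genes of 3 lists, drawn from separate libraries; the diagonal marks equal differences and orange and blue points are genes called above and below the sum. Sterol genes spread to the right and above the diagonal, stress response genes rise near 0 on the horizontal axis, and G2/M genes lie below the diagonal.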

How the data were processed

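The members and the 27 gene lists were chosen with earlier results of these data known. HISAT2, StringTie and the build GRCh37 are named, without versions, per the submitters' processing notes. The read count columns, whole numbers per gene as deposited by the authors, were used without change; the lowest value was 1, and a gene at 0 in some library is not listed. Low genes were removed with filterByExpr of edgeR (10 reads, 15 in total), and counts were scaled by TMM and fitted over 12 libraries with group as the term (glmQLFit, robust; 8 residual degrees of freedom). The additivity contrast and the single contrasts were tested with glmQLFTest, with Benjamini-Hochberg adjustment over 17702 genes, and a gene was called at an adjusted p under 0.05. Levels are CPM from TMM-scaled library sizes; differences are log2 with SE and 95% interval. Each adjusted p in the text is from edgeR unless another tool is named.

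Libraries held 55.5 to 77.2 M counts, and replicates differed by more than counting error (chi-square per degree of freedom 5.56 to 22.8), so their spread set the precision. p-values measure the spread between the 3 libraries of a group, which includes variation shared by libraries of the same replicate number.

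Named genes were fixed prostate, sterol, stress, lysosome and cell cycle genes, the 12 largest rises and 12 largest falls with at least 5 CPM in the highest group and 1 CPM in every library, up to 4 called members per list by p, and 6 genes short of the sum in each direction. Genes outside this rule, such as STEAP4, GRHL2, MAOA, STEAP1, PMVK, ATF4, SLC7A11, BID, ABCA1, VEGFA and LDHA, and the full member names of small lists, were named after their values were seen. Some genes are not reported here.

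Alternatives were DESeq2, limma-voom, RLE and upper-quartile scaling, other filters, a replicate block, omission of libraries, and addition of effects on the linear CPM scale (limma on CPM over the gene mean). The model was tested on simulated data. Promoters are the 250 bases before the gene start in the RefSeq table on GRCh38.p14, matched by gene ID. The software was edgeR 4.0.16, DESeq2 1.42.0 and limma 3.58.1 under R 4.3.3.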

Additional observations from a re-analysis of the deposited data

How the results depend on the processing

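None of the 153 named genes turned direction under any alternative run that gave it a value (151 had one with DESeq2 and with at least 10 reads in every library). The counts of genes above and below the sum were 1510 and 1724 by DESeq2, 1347 and 1330 by limma-voom, 1273 and 1433 with RLE, 1317 and 1383 with upper-quartile scaling, 1265 and 1362 without a filter, and 1332 and 1418 with at least 10 reads in every library. Without single libraries they ran from 934 to 1758 upward and from 937 to 1910 downward, the highest of both without ligand replicate 3. Without replicate 1 of every group, 723 departed upward and 632 downward, and the degrader lay above vehicle and both agents in 1187 genes and below them in 1202, against 1866 and 1901; fewer libraries entered. On the linear CPM scale, where effects are added as CPM, 1132 genes departed upward and 795 downward, and 1809 of the 2694 called genes were called in the same direction. The upward share of all calls, 50% here, ran from 46.7% with DESeq2 to 58.7% on the linear scale.

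The replicate block raised the counts to 2234 and 2229 and called 9 hypoxia and glycolysis genes upward and 11 downward, 11 p53 targets upward and 10 luminal genes downward. Deviations from the group means correlated at -0.0323 to 0.207 between libraries of the same number (median 0.0850), over 0.1 in 7 of 18 pairs. Between libraries of different number they correlated at -0.169 to 0.0744 (median -0.0476), over 0.1 in 0 of 36 pairs. Deviations sum to 0 within a group, so values above 0 for the same number push those for different numbers below 0. The different-number pairs are therefore not separate evidence. Of 12 libraries, 11 correlated best with their own number. Libraries of the same number thus shared some variation, which the main fit, with group as its term, did not model.

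Of the named genes, 14 lost their call on the linear scale (among them KLK2, FKBP5, SLC45A3 and STEAP4), 19 without replicate 1 of every group, 1 with limma-voom and 0 with DESeq2, RLE, upper-quartile scaling or without a filter. Leaving out single libraries gave 67 losses and 2 gains beside 1767 unchanged. These are pairs of a gene and a run, so that 1 gene can count more than once. No alternative varied depth. Of the genes not called, 56.8% had intervals within 0.5 log2 of 0 and 79.6% within 1 log2.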
